A study of Mus musculus with 6 samples.

Results

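Replication-dependent histone genes were taken from the annotation of the mouse genome NCBIM37 as all protein-coding genes whose symbol begins with Hist1h, Hist2h, Hist3h or Hist4h. This gave 67 of 22380 protein-coding genes, of which 6 encode linker histone H1, 19 encode H2A, 18 encode H2B, 11 encode H3 and 13 encode H4. 55 of them are Hist1 genes. All Hist1 genes but Hist1h2al lay on chromosome 13 in a first run of 23 genes (chr13:21804001-22138000, 334 kb) and a second run of 31 genes (chr13:23620001-24030000, 410 kb), with 1482 kb between the runs. Hist1h2al lay apart on the same chromosome (chr13:51298057-51298434). The 9 Hist2 genes lay on chromosome 3, the 2 Hist3 genes on chromosome 11 and Hist4h4 on chromosome 6. The genome had been divided into 1327469 tiles of 2 kb, and the window of a gene was made of the tiles that the gene overlapped and 1 further tile on both sides. All windows together covered 159 tiles. 61 of the 67 genes shared a tile with another histone gene and there were 64 distinct windows, so neighbouring genes are not independent measurements.

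H3K9me2, H3K27me3 and H3K9me3 were profiled by ChIP-seq in mouse embryonic stem cells (ESCs) of 2 genotypes, Dicer KO ESCs, labelled Dicer -/-, and Dicer KO/Dnmt1 cKO ESCs, labelled Dicer/Dnmt1 -/-. Both genotypes lacked Dicer1, the RNase that makes microRNAs and endogenous siRNAs, and had been made by CRISPR/Cas9 in ESCs with loxP sites in Dnmt1. In the second genotype, Cre recombinase activated by tamoxifen had also removed Dnmt1, the enzyme that maintains DNA methylation after replication. The Dicer KO line had been grown from single cells, the labels give E14 as the background strain where the methods give C57BL/6 for the parental ESCs, and the cells were kept in serum with LIF. With 1 library for each mark and genotype, no difference between genotypes could be set against a replicate, and p-values are not given. All intervals are 95% intervals that cover counting error alone, and a difference in all cells cannot be told apart from a larger one in some cells.

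Replication-dependent histone genes supply the bulk of new histones during S phase. They have no introns as a rule, stand in clusters, and their mRNAs end in a stem-loop bound by SLBP in place of a poly(A) tail. H3K27me3 is laid down by Polycomb repressive complex PRC2 at silent developmental genes, H3K9me2 covers broad silent regions, and H3K9me3 marks heterochromatin and silent repeats. Histone genes are highly transcribed in cycling cells such as ESCs, except for the few variants used in the testis.

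The stem-loop is shown first because it is the feature that these genes share. An exact match to the histone stem-loop motif, with the loop varying at its last base and pyrimidine and purine positions in the stem allowed to vary, was searched on the sense strand from 1000 bases before to 300 bases after the annotated end of each gene. It was found in 51 of the 67 histone genes (76.1%), against 53 of all 22380 protein-coding genes (0.237%). The sequences below are read from NCBIM37 with the 16 bases of the match in capitals, for the testis linker histone Hist1h1t (chr13:23788389-23788414), the testis genes Hist1h2ba (chr13:24025594-24025619) and Hist1h2aa (chr13:24026755-24026780), and for Hist1h1e (chr13:23713646-23713671), Hist3h2ba (chr11:58762846-58762871), Hist1h3h (chr13:21809959-21809984) and Hist1h4c (chr13:23789953-23789978).
Hist1h1t: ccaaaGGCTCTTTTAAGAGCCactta
Hist1h2ba: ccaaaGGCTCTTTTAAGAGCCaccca
Hist1h2aa: aaaaaGGCTCTTTTCAGAGCCacctt
Hist1h1e: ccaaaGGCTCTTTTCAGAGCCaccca
Hist3h2ba: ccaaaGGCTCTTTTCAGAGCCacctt
Hist1h3h: tcaaaGGCTCTTTTCAGAGCCaccca
Hist1h4c: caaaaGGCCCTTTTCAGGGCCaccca
The commonest form, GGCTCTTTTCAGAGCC, was found in 30 genes, among them H1, H2A, H2B and H3 genes. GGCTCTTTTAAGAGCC was found in 9 genes, which included the testis genes Hist1h1t and Hist1h2ba, while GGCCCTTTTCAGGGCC was found in 8 genes, all of them H4 genes. For the 16 genes without a match, the searched letters were not in the window, and nothing further is drawn from it.

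Promoters from 250 bases before to 50 bases after the annotated start were searched on both strands for a CCAAT box, an octamer and a TATA box, each as an exact match. The letters CCAAT were found in 57 of the 67 histone promoters (85.1%) and in 37.9% of all protein-coding promoters. All 19 H2A and all 18 H2B promoters held it, but only 4 of the 13 H4 promoters did. The octamer ATTTGCAT, which Oct factors bind, was found in 15 histone promoters (22.4%) against 1.72% of all, with 7 in H2A and 8 in H2B genes, many of which are transcribed away from each other out of 1 shared promoter. The TATA box, searched as the letters TATAAA, was found in 38 (56.7%) against 13.4%. The promoters below are those of genes named in the results. Over its window, Hist3h2ba had the highest H3K27me3, and Hist1h1e came next, with most of its reads in the tiles beside the gene. The testis gene Hist1h2ba had the highest H3K9me2. Hist1h2bp, which met the minimum of 40 reads only through the Dicer KO/Dnmt1 cKO, had the lowest Dicer KO H3K9me2 among genes that met it. They are written 5′ to 3′ on the strand of the gene with the motifs in capitals, from chr11:58762163-58762462 (plus strand), chr13:23714322-23714621 (minus), chr13:24025976-24026275 (minus) and chr13:21879080-21879379 (plus) of NCBIM37.
Hist3h2ba: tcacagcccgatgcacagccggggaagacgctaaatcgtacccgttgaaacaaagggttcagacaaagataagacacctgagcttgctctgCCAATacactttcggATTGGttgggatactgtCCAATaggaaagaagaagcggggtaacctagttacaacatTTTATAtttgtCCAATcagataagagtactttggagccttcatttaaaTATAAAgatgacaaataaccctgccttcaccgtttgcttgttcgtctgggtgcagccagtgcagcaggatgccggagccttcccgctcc
Hist1h1e: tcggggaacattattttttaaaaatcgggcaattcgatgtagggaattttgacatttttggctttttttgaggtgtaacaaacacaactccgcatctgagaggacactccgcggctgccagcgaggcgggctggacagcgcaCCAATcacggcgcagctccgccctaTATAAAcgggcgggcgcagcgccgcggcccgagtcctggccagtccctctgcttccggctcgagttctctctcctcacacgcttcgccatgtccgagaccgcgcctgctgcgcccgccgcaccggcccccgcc
Hist1h2ba: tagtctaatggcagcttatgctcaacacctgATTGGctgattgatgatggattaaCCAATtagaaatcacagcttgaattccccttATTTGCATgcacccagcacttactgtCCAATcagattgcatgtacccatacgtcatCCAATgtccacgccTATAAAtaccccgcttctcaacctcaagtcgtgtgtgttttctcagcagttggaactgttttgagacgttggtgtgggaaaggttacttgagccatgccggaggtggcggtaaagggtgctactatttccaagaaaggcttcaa
Hist1h2bp: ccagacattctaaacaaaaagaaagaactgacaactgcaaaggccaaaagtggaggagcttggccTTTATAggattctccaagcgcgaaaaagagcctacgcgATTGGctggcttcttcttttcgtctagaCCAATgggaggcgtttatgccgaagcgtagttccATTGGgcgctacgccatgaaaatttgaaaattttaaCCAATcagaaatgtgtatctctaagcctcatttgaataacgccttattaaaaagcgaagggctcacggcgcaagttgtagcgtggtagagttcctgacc
The deposited values were the log2 of observed over expected reads per tile, from which the reads could be recovered as whole numbers. The 6 libraries held between 16834940 and 27162045 reads in tiles, and the median tile held 13 to 18 reads. A level is given below as reads per tile divided by the mean of all tiles of the library, so that 1 is the genome mean. As a check of the labelled cell type, the 6 pluripotency genes examined had a median H3K27me3 level of 0.503 in the Dicer KO and the 10 lineage genes a median of 3.82. At Dnmt1 the H3K9me2 level was 0.340 (112 reads) in the Dicer KO and 0.545 (219 reads) in the Dicer KO/Dnmt1 cKO, while Dicer1 had 0.767 (350 reads) and 0.863 (480 reads). These values do not check the deletions, because histone marks over a whole gene do not show the removed exons.

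Several histone genes are near copies of each other, and reads that fit more than 1 place had been discarded on mapping quality. Over the 159 tiles, 88.3% of all words of 100 bases occurred once in the genome, against 96.3% in the 500 kb on both sides of the Hist1 cluster. Hist1h2ao and Hist1h2ap were identical over all 519 bases, Hist1h2bq and Hist1h2br over 3788 bases and Hist2h2aa1 and Hist2h2aa2 over 578 bases, and Hist1h4m and Hist1h4n differed at 1 of 402 bases. In 6 genes of the first run (Hist1h2bq, Hist1h2ao, Hist1h4m, Hist1h4n, Hist1h2ap and Hist1h2br) less than 50% of the words were unique. Hist1h2bq, Hist1h2ao and Hist1h4m had 0 H3K9me2 reads in both genotypes. For Hist1h2ao, a floor of 3 reads per library corresponds to a Dicer KO level of 0.0789 and a Dicer KO/Dnmt1 cKO level of 0.0647. The 95% counting intervals of its 0 reads reach 0.0970 and 0.0796. Low values at these 6 genes say little about the marks, and values from unique tiles are therefore given beside the main ones.

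Summed over the histone genes, all 3 marks lay below the genome mean, and H3K27me3 was the least depleted. In the Dicer KO, H3K9me2 over the 159 tiles stood at 0.488 (95% counting interval 0.458 to 0.520, 985 reads), H3K27me3 at 0.830 (0.799 to 0.861, 2699 reads) and H3K9me3 at 0.582 (0.551 to 0.615, 1266 reads). In the Dicer KO/Dnmt1 cKO the levels were 0.558 (0.529 to 0.589, 1371 reads), 0.780 (0.746 to 0.815, 1989 reads) and 0.585 (0.554 to 0.617, 1326 reads) in the same order. Tiles of all protein-coding genes stood between 0.986 and 1.04 for every mark and genotype. In the 108 tiles with at least 95% unique words, the Dicer KO levels were 0.637 for H3K9me2, 1.05 for H3K27me3 and 0.687 for H3K9me3. H3K27me3 in unique sequence thus reached the mean of all tiles in the Dicer KO, and both H3K9 marks remained below it. In the Dicer KO/Dnmt1 cKO, H3K27me3 was at 0.976 in these tiles. The mean of all tiles includes repeated sequence, and unique tiles of the 500 kb flanks of the Hist1 cluster had a Dicer KO H3K27me3 level of 1.13. To divide out copy number and mappability, which all marks share, each mark was also set against the mean of the other marks of the same genotype. H3K27me3 then stood at 1.55 (1.47 to 1.64) in the Dicer KO and 1.37 (1.29 to 1.45) in the Dicer KO/Dnmt1 cKO. H3K9me2 stood at 0.692 (0.645 to 0.742) and 0.818 (0.768 to 0.871), and H3K9me3 at 0.883 (0.828 to 0.942) and 0.874 (0.820 to 0.931).

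Gene by gene, the median H3K9me2 level of the 67 histone genes in the Dicer KO was 0.355, against 0.734 for all protein-coding genes. The medians for H3K27me3 were 0.489 and 0.698, and those for H3K9me3 were 0.536 and 0.768. A level of at most 0.5 was found for H3K9me2 at 47 histone genes (70.1%), against 27% of all protein-coding genes and 31.6% of the 5834 whose windows were 3 to 5 tiles long, as were those of 64 histone genes. For H3K27me3 it was found at 34 histone genes (50.7%) against 40.2% of all genes and 31.2% of those with short windows, and for H3K9me3 at 24 (35.8%) against 13% and 18.2%. The share of low genes was thus higher among the histone genes in all 3 marks, and the part of their lower mappability in these counts was not tested. In the Dicer KO/Dnmt1 cKO the numbers were 38 (19% of all genes), 33 (36.6%) and 34 (12.9%). A level of at least 2 in the Dicer KO was found for H3K27me3 alone, at 2 histone genes, against 11.5% of all protein-coding genes. The same level was reached by 0 histone genes for H3K9me2 (0.357% of all) and by 0 for H3K9me3 (0.769%).

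**Figure D1:**
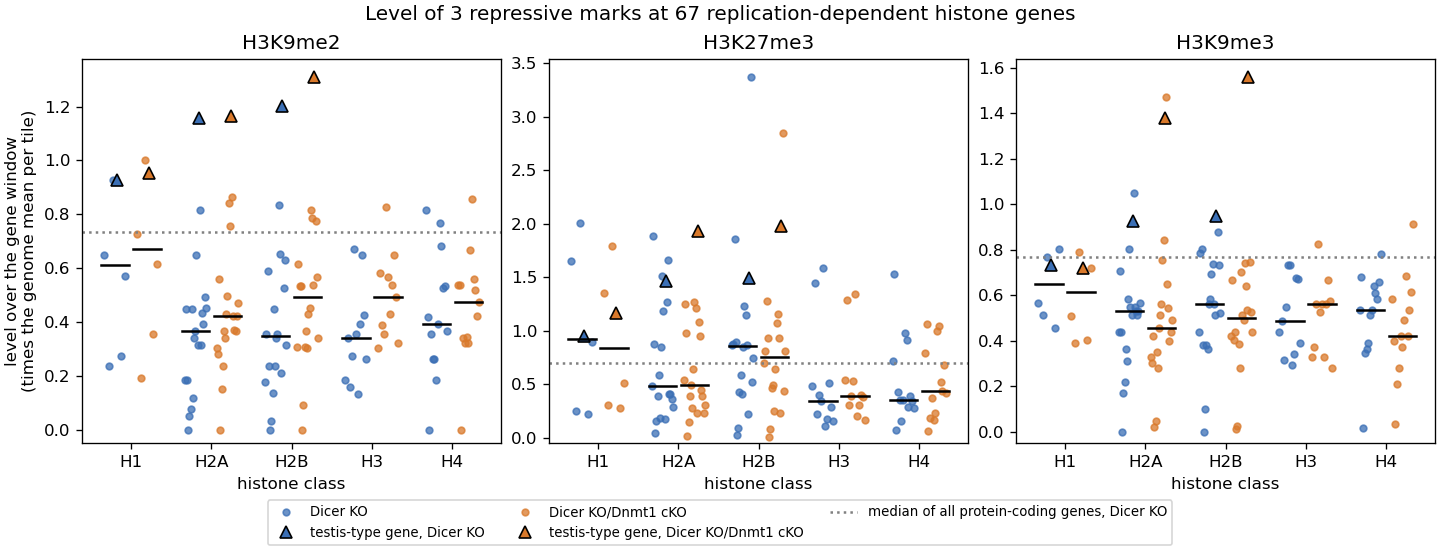
Level of H3K9me2, H3K27me3 and H3K9me3 (times the genome mean per tile) over the window of each of the 67 histone genes, by histone class. Each point is 1 gene in 1 library, blue for Dicer KO and orange for Dicer KO/Dnmt1 cKO, triangles are the testis genes, black lines are class medians and the dotted line is the median of all protein-coding genes in the Dicer KO. Most genes lie below the dotted line for H3K9me2 and H3K9me3, Hist3h2ba tops the H3K27me3 panel at 3.37 and 2.85, and the H2A and H2B triangles are high in all panels.

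The histone classes differed most in H3K27me3. Summed tiles of H2B genes in the Dicer KO had an H3K27me3 level of 0.934 (0.891 to 0.979) and those of H1 genes 0.966 (0.882 to 1.05). H2A gene tiles followed at 0.766 (0.717 to 0.817), whereas tiles of H3 genes were at 0.531 (0.482 to 0.584) and those of H4 genes at 0.520 (0.473 to 0.571). H1 and H2B did not differ beyond their intervals, and neither did H3 and H4. Tiles near genes of more than 1 class counted for each of them. The H2B tiles included Hist3h2ba (207 of 1739 H3K27me3 reads) and the long annotated span of Hist1h2be. Unique words made up 96.7% in H1 gene tiles, 83.2% in H2A, 84.4% in H2B, 88.6% in H3 and 83.0% in H4. The part of this in the order of the classes was not tested. H3K9me2 was highest at H1 gene tiles, with 0.584 (0.502 to 0.674), and lowest at H3 gene tiles, with 0.368 (0.317 to 0.426), although the H3, H2A (0.382, 0.339 to 0.429) and H4 (0.411, 0.359 to 0.469) intervals overlapped. H3K9me3 ranged from 0.493 at H4 to 0.635 at H1 gene tiles.

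By locus, the Hist3 genes stood apart in H3K27me3. Over their 7 tiles, in which 99.4% of the words were unique, the H3K27me3 level was 2.39 (2.15 to 2.66, 343 reads) in the Dicer KO and 1.76 (1.53 to 2.03, 198 reads) in the Dicer KO/Dnmt1 cKO. Their H3K9me2 level was 0.406 and 0.573, and their H3K9me3 level was 0.689 and 0.691. Hist3h2ba, which encodes an H2B, had the highest H3K27me3 of the 67 genes, with a level of 3.37 from 207 reads in the Dicer KO and 2.85 from 137 reads in the Dicer KO/Dnmt1 cKO. Hist3h2a, its H2A neighbour, had 1.66 from 136 reads and 0.951 from 61 reads. The Hist2 genes were low in all marks. Over their 25 tiles, H3K9me2 was at 0.448, H3K27me3 at 0.497 and H3K9me3 at 0.594 in the Dicer KO, and Hist4h4 had 0.368, 0.277 and 0.780 in that order.

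Within Hist1, H3K27me3 was carried by a few stretches. The window of Hist1h1e, a main somatic linker histone gene, had an H3K27me3 level of 2.00 (164 reads) in the Dicer KO and 1.79 (115 reads) in the Dicer KO/Dnmt1 cKO. In the Dicer KO, 63 and 64 of these reads lay in the tiles added beside the gene, at levels of 3.08 and 3.13. Most of this signal was thus beside the gene and not over it. Hist1h2ak, an H2A gene of the first run, had 1.89 (116 reads) and 1.25 (60 reads). Hist1h2bn, the divergent H2B partner of Hist1h2ak, had 1.86 (152 reads) and 1.28 (82 reads), and Hist1h1b, another linker histone gene of the first run, had 1.65 (135 reads) and 1.36 (87 reads). Hist1h1b, and Hist1h2bn for this mark, were picked after their values were seen. At the other end, among genes with at least 40 reads over both libraries, Hist1h1d, also a somatic linker histone gene, had 0.254 (26 reads) and 0.312 (25 reads). Hist1h4b had 0.293 (18 reads) and 0.520 (25 reads), and Hist2h2aa1 had 0.293 (24 reads) and 0.312 (20 reads). Windows of linker histone genes thus stood at both ends of the range, for Hist1h1e mostly through the tiles beside the gene. The order of the 67 genes by H3K27me3 was close in both genotypes, with a Spearman rho of 0.932 over 67 genes, and 0.939 over the 46 genes with at least 90% unique words. The same rho was 0.789 for H3K9me2 and 0.724 for H3K9me3. These are descriptions, since the points share windows, libraries and mappability, and the level itself went with the share of unique words (Dicer KO rho of 0.556, 0.443 and 0.468 with H3K9me2, H3K27me3 and H3K9me3).

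For H3K9me2, the highest levels in the Dicer KO among genes with at least 40 reads were those of Hist1h2ba (1.20, 61 reads), Hist1h2aa (1.16, 44 reads) and Hist1h1e (0.927, 47 reads). The lowest were those of the H2B gene Hist1h2bp (0.237, 12 reads) and of the H2A genes Hist3h2a (0.315, 16 reads) and Hist1h2ab (0.315, 12 reads). Hist1h2bp and Hist1h2ab reached 40 reads only through the Dicer KO/Dnmt1 cKO. Some genes below that minimum were lower in the Dicer KO, such as Hist1h2an (0.184, 7 reads) and Hist1h2bk (0.138, 7 reads). For H3K9me3, Hist1h2al had the highest level, 1.05 from 43 reads, and it was also the 1 Hist1 gene outside the runs. Hist1h2ba (0.951, 52 reads) and Hist1h2aa (0.926, 38 reads) came next. The lowest H3K9me3 levels were those of Hist1h2af (0.311, 17 reads) and of Hist1h2bp and Hist1h2bk (0.384, 21 reads each). With counts this low, the order of single genes within a group of neighbours cannot be resolved.

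Testis-type histone genes had higher levels over their summed tiles than the other histone gene tiles. Single genes such as Hist3h2ba (3.37) and Hist1h1e (2.00) had more H3K27me3 in the Dicer KO than any testis gene. Hist1h1t encodes the testis linker histone, and Hist1h2aa and Hist1h2ba encode the testis H2A and H2B and stand head to head at the end of the second run. Over their 8 tiles, H3K9me2 was 1.06 (0.873 to 1.29, 108 reads) in the Dicer KO and 1.13 (0.953 to 1.34, 140 reads) in the Dicer KO/Dnmt1 cKO. H3K27me3 was 1.22 (1.06 to 1.40, 200 reads) and 1.58 (1.37 to 1.81, 202 reads), and H3K9me3 was 0.841 (0.678 to 1.03, 92 reads) and 1.14 (0.952 to 1.35, 130 reads). Dicer KO levels here were 2.32 times (1.90 to 2.84), 1.51 times (1.31 to 1.74) and 1.48 times (1.20 to 1.83) those of the other histone gene tiles. At Hist1h1t, whose window shares tiles with Hist1h4c and Hist1h2bc, H3K9me2 was at 0.927 and 0.955, H3K27me3 at 0.953 and 1.17, and H3K9me3 at 0.731 and 0.719. Hist1h2aa had 1.16 and 1.17, 1.47 and 1.93, and 0.926 and 1.38 in the same order. Hist1h2ba had 1.20 and 1.31, 1.49 and 1.98, and 0.951 and 1.56. Hist1h2aa and Hist1h2ba share most of their window, so they count as 1 place in the genome. In these tiles 98.8% of the words were unique against 87.7% in the other histone gene tiles, and the part of this in the ratios was not tested.

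The loss of Dnmt1 in addition to Dicer1 went with small differences over the histone genes as a whole. On the log2 scale, the Dicer KO/Dnmt1 cKO over the Dicer KO stood at 0.19 (95% counting interval 0.07 to 0.31) for H3K9me2, at -0.09 (-0.17 to -0.005) for H3K27me3 and at 0.01 (-0.10 to 0.12) for H3K9me3. Tiles of all protein-coding genes gave 0.04, 0.02 and 0.03. The difference from all protein-coding gene tiles was 0.16 (0.04 to 0.27) for H3K9me2, -0.10 (-0.19 to -0.02) for H3K27me3 and -0.02 (-0.13 to 0.09) for H3K9me3. Gene by gene, the median log2 ratio for H3K9me2 was 0.12 with 25 of 35 histone genes above 0, against 0.11 and 68.3% for all genes tested. For H3K27me3 it was -0.01 with 25 of 50 above 0, against 0.07 and 60.8%, and for H3K9me3 it was -0.11 with 19 of 46 above 0, against 0.02 and 55.2%. Genes with short windows had medians of 0.05 for H3K9me2, -0.01 for H3K27me3 and -0.01 for H3K9me3. Of them, 56.2%, 48.8% and 48.8% were above 0. For H3K27me3 the histone genes were thus near genes of like window length. The H3K27me3 value over the summed tiles was -0.04 with gene tiles alone and -0.05 with 2 further tiles in place of 1. The H3K9me2 value was 0.13 with gene tiles alone. In unique tiles of the Hist1 runs, H3K9me2 stood at 0.08 (-0.11 to 0.26) in tiles that overlap a gene, the long annotated span of Hist1h2be included. In the adjacent tiles H3K9me2 stood at 0.34 (0.12 to 0.56). All these are amounts that 1 library per genotype cannot set against the variation between cultures. Between the classes, H3 gene tiles had the highest H3K9me2 difference, 0.46 (0.20 to 0.73), from 182 reads in the Dicer KO and 305 reads in the Dicer KO/Dnmt1 cKO, after scaling for the totals. Of the 11 H3 genes, 6 had enough reads, and 5 of these 6 were above 0, as were 68.3% of all genes tested. H2A gene tiles were at 0.30 (0.08 to 0.51), H2B at 0.19 (0.04 to 0.35), and H1 and H4 both at 0.10. The H3 value exceeded that of H1 by 0.36 with an interval from -0.02 to 0.75, which holds 0.

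Few single genes passed a 2-fold difference. H3K9me2 could be assessed in 35 histone genes with at least 40 reads over both libraries, and 2 of them, Hist1h2bp and Hist1h2ab, were at least 2-fold higher in the Dicer KO/Dnmt1 cKO, against 0.435% of all protein-coding genes and 1.2% of those with short windows. For Hist1h2ab, 12 reads in the Dicer KO stood against 35 reads in the Dicer KO/Dnmt1 cKO, with a log2 ratio of 1.26 (0.31 to 2.21). Hist1h2bp had 12 and 33 reads, with a log2 ratio of 1.18 (0.22 to 2.13). Both genes reached 40 reads only through the library in which they were higher. The filter thus favoured a rise, and the count is no support for one. Next came the H2B gene Hist1h2bm at 0.79 (-0.02 to 1.60), and the lowest were the H4 genes Hist1h4j at -0.59, Hist2h4 at -0.34 and Hist1h4b at -0.28, whose intervals all held 0. No histone gene was 2-fold lower in H3K9me2 (0.0283% of all genes, 0.102% with short windows). At 1.5-fold, 6 genes were higher (4.69% of all, 7.83% with short windows) and 1 lower (0.657% and 2.18%). The interval lay wholly above 0 at Hist1h2bp and Hist1h2ab alone (16.8% of all genes) and wholly below 0 at no histone gene (2.92%).

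For H3K27me3, 50 histone genes could be assessed, and 1 was at least 2-fold higher (0.517% of all genes, 1.05% with short windows) and 1 at least 2-fold lower (0.0986% and 0.297%). The higher one was Hist2h4, with 28 and 44 reads and a log2 ratio of 1.00 (0.32 to 1.69). The lower one was Hist1h4n, with 35 and 12 reads and -1.19 (-2.14 to -0.25), 1 of the near copies with few unique words. Hist1h4n reached the minimum of reads only through the Dicer KO, where it was higher. Hist3h2a fell from 136 to 61 reads, a log2 ratio of -0.80 (-1.24 to -0.37), and Hist1h1a, a linker histone gene, from 73 to 33 reads, -0.79 (-1.39 to -0.20). The intervals of 6 genes lay wholly below 0 (10.2% of all genes): Hist3h2a, Hist1h4k, Hist1h2ak, Hist1h2bn, Hist1h4n and Hist1h1a. Hist1h4k, Hist1h2ak and Hist1h2bn lie side by side in the first run and share tiles. Those of Hist1h2ba and Hist2h4 lay wholly above 0 (18.3% of all genes). At 1.5-fold, 3 genes were higher (5.51% of all, 6.24% with short windows) and 5 lower (1.61% and 4.84%).

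H3K9me3 could be assessed in 46 histone genes. None was 2-fold higher (0.0789% of all genes, 0.283% with short windows), and 1, Hist1h2ak, was at least 2-fold lower (0.167% and 0.642%), with 29 and 13 reads and a log2 ratio of -1.22 (-2.16 to -0.27). Hist1h2ak reached the minimum of reads only through the Dicer KO, where it was higher. Hist1h2bn, in overlapping tiles, had 44 and 23 reads and -0.996 (-1.72 to -0.27). At Hist1h2ba, 52 reads stood against 89 reads, with a log2 ratio of 0.71 (0.22 to 1.21). Intervals wholly above 0 were found at 1 gene, Hist1h2ba (6.99% of all genes), and wholly below 0 at 2 genes, Hist1h2ak and Hist1h2bn (3.67%). At 1.5-fold, 3 were higher (1.28% of all, 3.74% with short windows) and 3 lower (1.47% and 4.46%). Over their 8 tiles, the testis genes had log2 ratios of 0.37 (0.08 to 0.65) for H3K27me3 and 0.44 (0.05 to 0.82) for H3K9me3, and 0.09 (-0.27 to 0.45) for H3K9me2. The other histone gene tiles had -0.13, -0.03 and 0.20. The testis genes thus differed from the other histone genes by 0.50 (0.20 to 0.79) for H3K27me3 and by 0.47 (0.07 to 0.87) for H3K9me3, with no replicate check. For H3K9me3 this rested on the place of Hist1h2aa (0.57) and Hist1h2ba (0.71), since Hist1h1t had 40 and 41 reads and a log2 ratio of -0.02 (-0.65 to 0.60).

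How a gene moved also depended on its level throughout the genome. Among all protein-coding genes with a mean H3K9me2 level under 0.5 and at least 40 reads, the median log2 ratio was 0.22 and 76.8% were above 0. The 14 histone genes in that range had a median of 0.36, and 11 of them were above 0. Between 0.5 and 1, the medians were 0.11 for 19 histone genes and 0.17 for all genes. For H3K27me3 under 0.5, the 16 histone genes had a median of 0.08, with 10 of 16 above 0, against 0.28 and 84.6% for all genes. Between 1 and 2 times the genome mean, 16 histone genes had a median of -0.22, with 5 of 16 above 0, against -0.01 and 46.0% for all genes. Genes with short windows had H3K9me2 medians of 0.22 under 0.5 and 0.12 from 0.5 to 1. Their H3K27me3 medians were 0.21 (68.5% above 0) under 0.5 and -0.04 (45.4%) from 1 to 2. For H3K9me2 the median of the histone genes thus lay above both sets under 0.5 and near that of short windows in the next range. For H3K27me3 it lay below both sets under 0.5 and from 1 to 2. Under 0.5 the share of histone genes above 0, 62.5%, was nearer to that of short windows than to that of all genes. None of this was tested, and neighbouring histone genes share tiles.

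**Figure D2:**
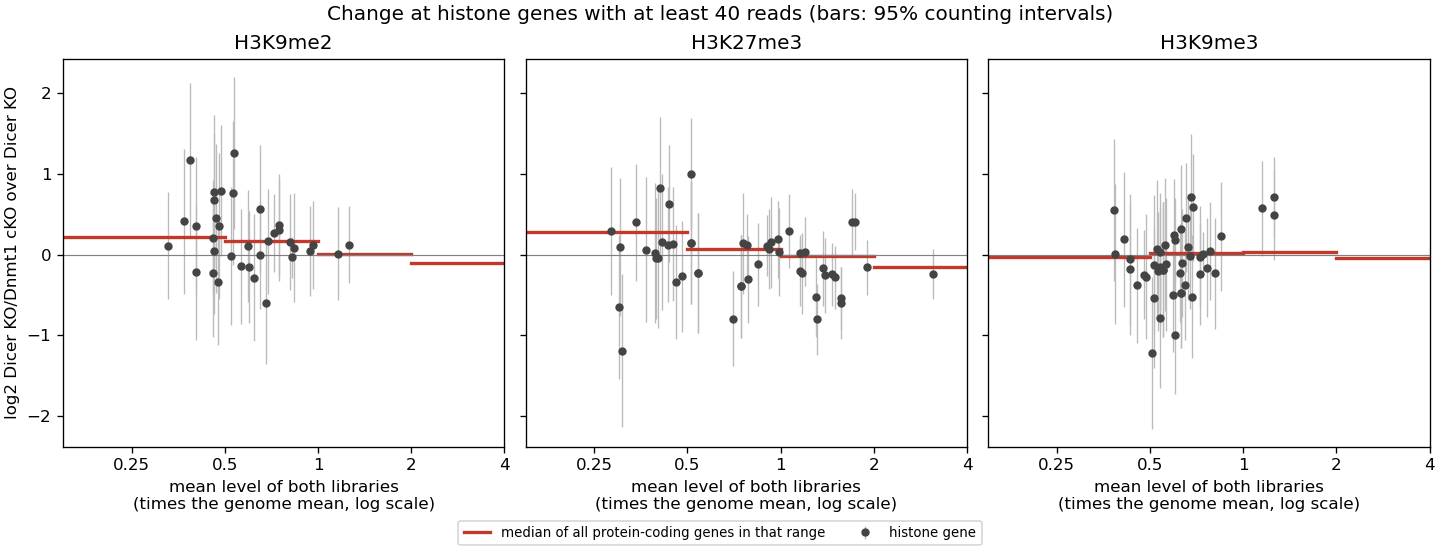
Log2 ratio (Dicer KO/Dnmt1 cKO divided by Dicer KO) against the mean level of both libraries (log axis) for histone genes with at least 40 reads. Points are genes with 95% counting intervals and red lines are the medians of all protein-coding genes within each range of level. Most intervals cross 0, and of the histone genes between 1 and 2 times the genome mean in the H3K27me3 panel, 5 of 16 are above 0.

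The rows of histone genes on chromosome 13 were then compared with their surroundings. Over the 121 histone gene tiles of both runs, the Dicer KO level divided by that of the 500 tiles in the 500 kb flanks was 0.446 (0.414 to 0.481) for H3K9me2, 0.746 (0.711 to 0.782) for H3K27me3 and 0.585 (0.546 to 0.626) for H3K9me3. In the Dicer KO/Dnmt1 cKO the ratios were 0.510 (0.479 to 0.543), 0.682 (0.646 to 0.720) and 0.562 (0.525 to 0.601). Between unique tiles of both, the Dicer KO ratios were 0.578, 0.926 and 0.685. The difference of the log2 ratios between cluster and flanks was 0.19 (0.05 to 0.33) for H3K9me2, -0.13 (-0.23 to -0.03) for H3K27me3 and -0.06 (-0.20 to 0.08) for H3K9me3. In unique tiles it was 0.15 (-0.002 to 0.30) for H3K9me2, an interval that just holds 0, and -0.15 (-0.26 to -0.03) for H3K27me3. Against the interval between the runs, which holds a family of vomeronasal receptor genes, the Dicer KO ratios were 0.562 for H3K9me2, 1.08 for H3K27me3 and 0.542 for H3K9me3.

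**Figure D3:**
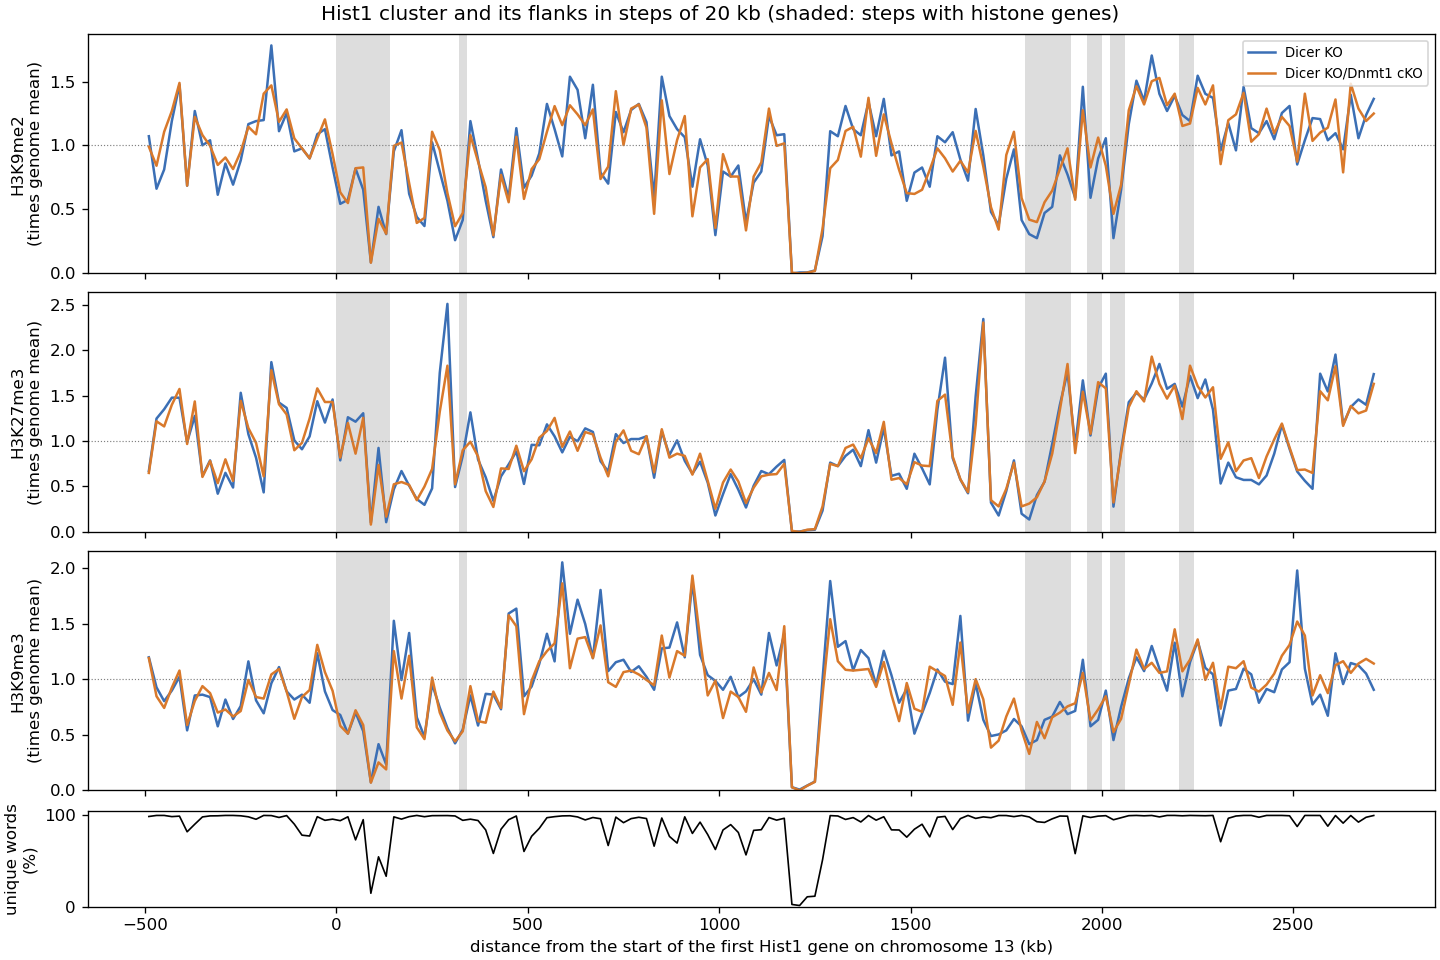
Levels of the marks (times the genome mean) in steps of 20 kb from 500 kb before to 500 kb after the Hist1 cluster, against the distance in kb from the first Hist1 gene, with steps that hold histone genes shaded. The lowest panel gives the percentage of unique words of 100 bases. Both genotypes follow each other closely, H3K9me2 and H3K9me3 are low at most shaded steps but not at the last pair, which holds Hist1h2aa and Hist1h2ba, and the steps near 0 in all marks also have few unique words.

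Both runs were low, but not alike. In the Dicer KO, the histone gene tiles of the first run had an H3K9me2 level of 0.329 (0.282 to 0.381) and those of the second run 0.586 (0.540 to 0.635). The respective levels were 0.769 and 0.833 for H3K27me3, and 0.416 and 0.632 for H3K9me3. Set against the mean of the other marks, H3K27me3 was higher in the first run, at 2.07 (1.83 to 2.34) against 1.37 (1.27 to 1.48). H3K9me2 then stood at 0.554 and 0.800, and H3K9me3 at 0.758 and 0.891. In the first run 71.9% of the words were unique and in the second 96.1%, and the part of this in the levels was not tested. It is divided out of the ratio between genotypes, where the runs also differed. H3K27me3 in the first run had a log2 ratio of -0.27 (-0.45 to -0.10) and in the second of 0.01 (-0.10 to 0.13), a difference of -0.28 (-0.49 to -0.07). H3K9me3 had -0.25 (-0.51 to 0.02) and 0.09 (-0.06 to 0.24), a difference of -0.34 (-0.65 to -0.03). For H3K9me2 the log2 ratios were 0.26 and 0.21. In the first run, tiles without histone genes were also below 0, at -0.12 (-0.22 to -0.03) for H3K27me3 and -0.11 (-0.23 to -0.003) for H3K9me3, so the difference was not particular to the histone gene tiles.

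Within the runs, the spaces between histone genes were marked more than the genes. In the second run, the other tiles had Dicer KO levels of 1.20 (H3K9me2), 1.55 (H3K27me3) and 0.995 (H3K9me3), and the histone gene tiles had 0.486 (0.443 to 0.533), 0.538 (0.506 to 0.573) and 0.635 (0.581 to 0.694) times these. The testis pair Hist1h2aa and Hist1h2ba, at 1.16 and 1.20, 1.47 and 1.49, and 0.926 and 0.951, thus stood nearer to the spaces around it than to the histone gene tiles. In the first run the histone gene tiles had 0.484 (0.412 to 0.567), 0.912 (0.836 to 0.995) and 0.549 (0.478 to 0.630) times the levels of the other tiles. The non-histone genes inside the runs were 10, among them Trim38, Hfe, which controls iron uptake, and the phosphate transporter genes Slc17a1 to Slc17a4. Their median H3K27me3 level in the Dicer KO was 1.62, and their median H3K9me2 level 1.13. Slc17a3 had the highest H3K9me2 among them (1.62), and Prss16, a protease gene of the thymus in the first run, had the highest H3K27me3, with 2.86 (351 reads) in the Dicer KO and 1.86 (179 reads) in the Dicer KO/Dnmt1 cKO. Slc17a3 and Prss16 were picked after their values were seen.

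By distance from the nearest Hist1 gene, in unique tiles, H3K9me2 in the Dicer KO was 0.727 (0.659 to 0.799) in tiles that overlap a gene and 0.608 (0.536 to 0.686) in the adjacent tile. The former include the long annotated span of Hist1h2be, whose window held tiles from chr13:23686001 to chr13:23714000. Its tiles from chr13:23704001 and chr13:23696001 had H3K9me2 levels of 1.73 and 1.42, and its part in the value at the genes was not tested. H3K9me2 was 0.816 at 4 kb, 0.836 at 6 to 10 kb and 1.05 (0.971 to 1.13) at 12 to 20 kb, and beyond 100 kb it was 1.16. H3K9me3 was flat up to 10 kb, with 0.676 at the genes, 0.662 in the adjacent tile, 0.728 at 4 kb and 0.672 at 6 to 10 kb, and it was 0.925 at 12 to 20 kb. H3K27me3 took another course. It was 1.11 (1.04 to 1.18) at the genes and 0.969 in the adjacent tile, and it was highest at 6 to 10 kb, with 1.45 (1.37 to 1.53) in the Dicer KO and 1.44 (1.35 to 1.53) in the Dicer KO/Dnmt1 cKO. From 22 to 50 kb it was still 1.32, and it returned to 0.991 at 52 to 100 kb. H3K9me2 thus reached the genome mean at 12 to 20 kb from the genes and H3K9me3 at 22 to 50 kb, where it was 1.06, and at both distances H3K27me3 was above it.

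**Figure D4:**
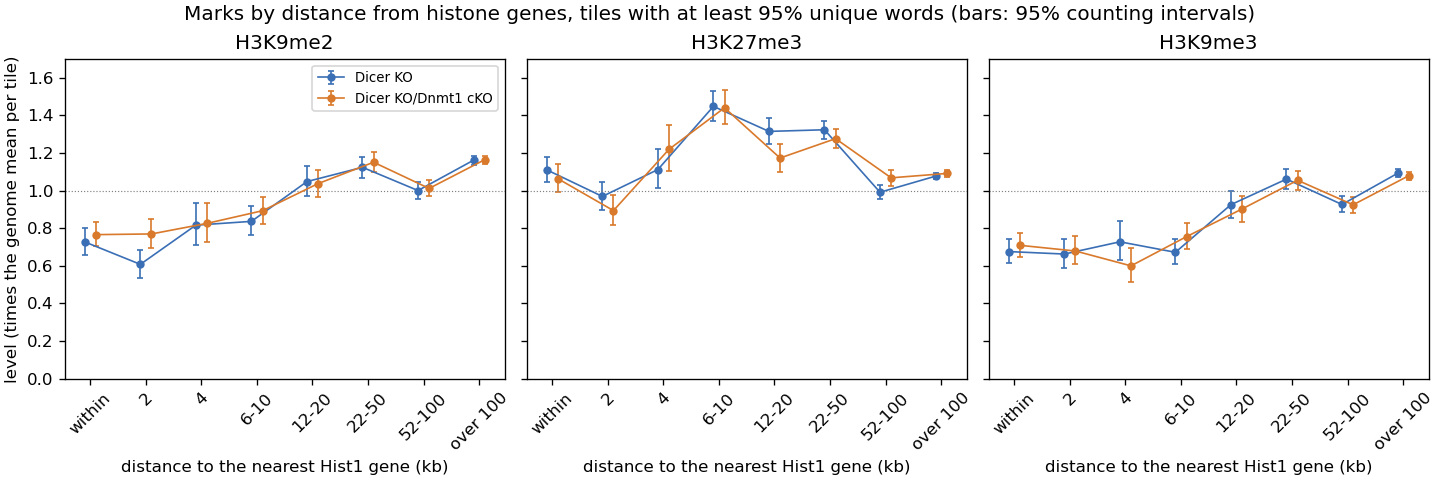
Level of each mark (times the genome mean) by distance in kb from the nearest Hist1 gene of the runs, in tiles with at least 95% unique words. Points are summed tiles of 1 library with 95% counting intervals, blue for Dicer KO and orange for Dicer KO/Dnmt1 cKO. H3K9me2 and H3K9me3 climb from about 0.7 to about 1.1, and H3K27me3 peaks at 6 to 10 kb at 1.45 and 1.44.

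Genes that work with the histone genes but lie elsewhere were low in H3K27me3 as well. Of 15 genes for replication-independent histones, 12 were found, and their median H3K27me3 level in the Dicer KO was 0.300. The oocyte linker histone gene H1foo had 2.61 and the spermatid linker histone gene H1fnt 2.02, whereas H3f3b, an H3.3 gene, had 0.171 and H2afz, the gene of H2A.Z, 0.208. H1fnt also had 2.22 times the genome mean for H3K9me3. Among 23 factors for histone mRNA and histone chaperones, such as Slbp, Npat and Asf1b, the median H3K27me3 level was 0.326 and 22 of 23 were at most at 0.5, against 40.2% of all genes. Their H3K9me2 log2 ratio had a median of 0.22, with 19 of 23 above 0, and that of H3K27me3 had a median of 0.30, with 18 of 23 above 0, and none of the 23 passed 2-fold in any mark. Over all genes tested the medians were 0.11 and 0.07, and 68.3% and 60.8% were above 0. Among those with a mean level of the mark under 0.5, the medians were 0.22 (76.8% above 0) and 0.28 (84.6%). The factors were thus near other genes of low level in both marks.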

How the data were processed

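ChIP-seq libraries of 3 marks were used, 1 per mark for each genotype. The authors aligned trimmed reads to NCBIM37 using Bowtie2, kept those with a mapping quality of at least 20 and used SeqMonk to quantify tiles. Values were deposited as log2 of observed over expected reads, in tiles of 2 kb where the methods describe 1 kb. Removal of duplicate reads was not given in the sources used here, and reads are then not independent molecules. The table had 25 value columns, of which 6 matched the labelled samples and 19 were not used. No input library was used.

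Whole reads were recovered as multiples of 1 read per library, with empty tiles at 0.9 of a read, and at most 1 value per library missed a whole number by over 0.1 reads. Genes came from the GENCODE annotation of NCBIM37, whose 22 chromosomes had the lengths in the table. Levels carry exact Poisson intervals, and ratios carry normal intervals from the reads. Changes per gene needed 40 reads over both libraries, and 2-fold counted as changed. Words of 100 bases were counted over the genome for uniqueness. Python 3.11.15, numpy 2.4.6, pandas 2.3.3, scipy 1.17.1 and matplotlib 3.10.9 were used, and the calculations were tested on simulated data.

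Named were, for each mark, the 3 highest and 3 lowest genes in the Dicer KO, the 3 largest rises and falls, the testis genes Hist1h1t, Hist1h2aa and Hist1h2ba, and Dnmt1 and Dicer1. The genes, lists and comparisons were chosen with earlier results of these data known. Level ranges, distance and sequence searches were added after seeing the data. Alternatives were other scalings, windows, flanks, folds and minimums of reads, leaving out the tile with most reads, unique tiles and GC content.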

Additional observations from a re-analysis of the deposited data

How the results depend on the processing

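With 1 library per mark and genotype, depth limits single genes and the variation between cultures is unknown. No paired analysis was possible because each group holds 1 library and no test was made. Over 21 alternatives, counted over all marks together, the log2 change over all histone genes ranged from 0.13 to 0.21 for H3K9me2 and from -0.11 to -0.04 for H3K27me3. For H3K9me3 it lay on both sides of 0, from -0.02 to 0.01. Levels depended on the tiles. With gene tiles only, H3K9me2 in the Dicer KO and Dicer KO/Dnmt1 cKO was 0.444 and 0.484, H3K27me3 0.744 and 0.723, and H3K9me3 0.526 and 0.518. With 2 further tiles, H3K9me2 was 0.538 and 0.601, and H3K27me3 0.893 and 0.864. In unique tiles, H3K9me2 was 0.637 and 0.718, H3K27me3 1.05 and 0.976, and H3K9me3 0.687 and 0.693. Scaled to the median tile, H3K27me3 was 0.893 and 0.834. H3K9me3 relative to the other marks was 0.813 and 0.819 in unique tiles. The Hist1 cluster over its flanks in unique tiles gave 0.578 and 0.640 (H3K9me2), 0.926 and 0.837 (H3K27me3), and 0.685 and 0.677 (H3K9me3). With flanks of 1000 kb the H3K27me3 ratio was 0.806 and 0.734. At 1.5-fold, 6 genes were higher and 1 lower in H3K9me2, 3 and 5 in H3K27me3, and 3 and 3 in H3K9me3. With a minimum of 20 reads, 8 of 61 were higher in H3K9me2 (0.737% of all genes). Among them were Hist1h2an (7 and 26 reads), Hist1h2bk (7 and 19) and Hist1h2af (6 and 21). Such genes met the minimum through the library in which they were higher, so the count is no support for a rise. The share among short windows was not computed at this minimum. With 80 reads 0 were higher in H3K9me2 and H3K27me3 and 0 lower in H3K27me3 and H3K9me3, since fewer genes were assessed. For the levels and ratios, the cause was not tested.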
